A study of Danio rerio with 3 samples.

Results

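Matrix metalloproteinases (MMPs), ADAM and ADAMTS proteases, ADAMTS-like proteins and TIMP inhibitors were followed across 3 microarrays of zebrafish embryos in which slc2a10 had been knocked down. The genes were chosen by symbol alone, as every probe whose annotated gene symbol began with mmp and a digit, with adam or with timp. Mmp9 and mmp13a were left out by that rule. It gave 37 genes on 46 probes, out of 15548 named genes on 23717 probes. Of the 37 genes, 30 had 1 probe and 7 had more.

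MMPs and ADAMTS proteases are zinc enzymes that cut extracellular matrix, and many ADAMs are membrane-bound zinc enzymes that release the outer parts of cell surface proteins. Most are made as inactive precursors, which furin-like convertases or plasmin open. TIMPs block the active site of MMPs and of some ADAMs, and in mammals TIMP2 also helps the membrane enzyme MMP14 to activate MMP2. In embryos these enzymes act in cell migration, cartilage and vessel remodelling and Notch signalling.

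All embryos were wild type fish of strain AB, kept at 28 °C and collected at 48 hours post fertilization. The tested embryos received 7.5 ng of a morpholino (MO), an antisense oligomer, against the splice donor of exon 2 of slc2a10, and were then sorted for a recognizable Class 1 phenotype. SLC2A10 encodes GLUT10, a facilitative sugar transporter. The comparison embryos received 5 ng of a control MO, and no sorting of them is described. RNA came from 10 to 15 whole embryos for each of 3 slc2a10 MO replicates, while the control MO RNA was combined into 1 pool that was hybridised on every array. The slc2a10 MO was:

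slc2a10 MO: caaataaagtccACTTACttggt

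reverse complement: accaaGTAAGTggactttatttg

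Sequences read 5′ to 3′, and they are shown because this oligomer is the agent whose effect is measured. The capitals mark GTAAGT, the common start of an intron, in the reverse complement, and the same 6 bases on the MO.

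Each value was read as a log2 ratio between the slc2a10 MO sample and the control MO pool of 1 array. It is a difference and carries no level of its own. The base of the log is not stated in the sources used here, so every fold size below rests on that reading. Replicates 1 and 3 carried Cy3 on the slc2a10 MO RNA, and replicate 2 carried Cy5. Over 43648 features the deposited columns of replicates 1 and 2 had a correlation of -0.65, those of replicates 2 and 3 one of -0.69, and those of replicates 1 and 3 one of 0.48. The sign of replicate 2 was therefore turned. No source used here defines which sample stands on top of the ratio. The sample titles name the Cy3 sample before the Cy5 sample on every array. Read as a ratio, that order would be Cy3 to Cy5, but the titles do not say so. Signs are therefore given relative to slc2a10, whose single probe read 0.50, 0.42 and 0.47 on replicates 1, 2 and 3. A positive value lies on the slc2a10 side and a negative value on the opposite side. Deposited ratios of Cy5 to Cy3 would mean that genes on the opposite side were higher in slc2a10 MO embryos than in the pool. Ratios of Cy3 to Cy5 would mean that they were lower in slc2a10 MO embryos. The slc2a10 reading itself does not settle this, since an MO on a splice site need not change transcript amount. With whole embryos, fewer cells of a type and less RNA per cell cannot be told apart.

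Between slc2a10 MO embryos and the control pool, the median size of difference of the protease and inhibitor genes was near that of all named genes. None had a mean over the 3 arrays of at least 1.5-fold, though mmp30 came close at 1.48-fold. Of the 37 genes, 5 passed limma's test at a Benjamini-Hochberg adjusted p under 0.05 over all named genes, against 19.3% of all named genes. Those 5 were 13.5% of the family, and the difference from the share of all named genes was not tested. Without replicate 2 the count was 3 of 37 (8.11%), the genes mmp30, adam8a and timp2b, against 10.0% of all named genes in that fit. It was 7 (18.9%, against 20.7% of all named genes) without replicate 1 and 4 (10.8%, against 16.3%) without replicate 3. The mmp30, adam8a and timp2b genes lay on the opposite side (8.16% of all named genes were called there), and adam23a and timp2a lay on the slc2a10 side (11.1% of all named genes). An unadjusted p under 0.05 was reached by 10 of the 37 genes and by 31.4% of all named genes. Among all 15548 named genes, called or not, only 300 had a mean of at least 1.5-fold, and none of the 37 did. At so small a share, none of 37 does not set the family apart. The median of the 37 means was 0.004, against 0.007 for all named genes, and the median size regardless of sign was 0.085, against 0.082. The 3 arrays gave 1 sign for 15 of the 37 genes (40.5%), against 50.1% of all named genes.

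**Figure D1:**
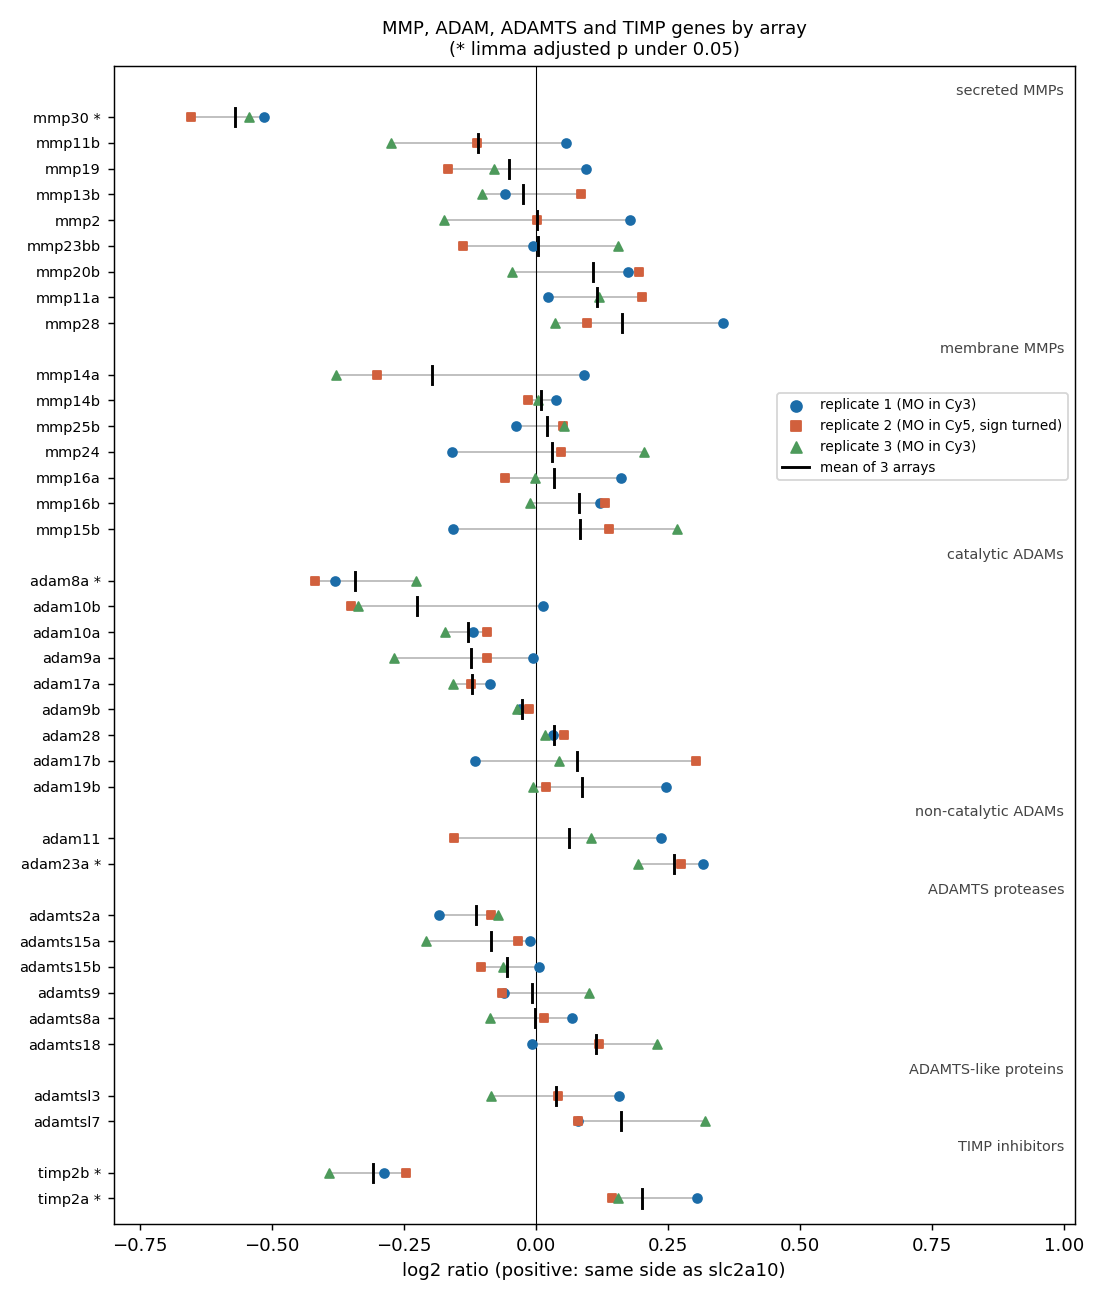
Log2 ratio of each of the 37 genes on the 3 arrays, by role, with positive values on the side of slc2a10. Blue circles are replicate 1, orange squares replicate 2 with its sign turned, green triangles replicate 3, black bars the mean, and a star marks the 5 called genes. The 3 values of mmp30 sit apart from those of the other genes, while those of most genes straddle 0.

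Among the secreted MMPs, 1 of 9 genes was called (11.1%, against 19.3% of all named genes). That gene was mmp30, which had the largest difference of the 37 genes. It read -0.51, -0.65 and -0.54 on replicates 1, 2 and 3, so every array put it on the opposite side by at least 0.51. The mean was -0.57 ± 0.07 (SD, n = 3), a 1.48-fold difference, with a limma adjusted p of 0.00042 and a 95% interval from -0.70 to -0.44. By size mmp30 ranked 105th among the named genes on its side. Its mean was -0.60 without replicate 1, -0.53 without replicate 2 and -0.58 without replicate 3, sizes around 1.5-fold.

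The other 8 secreted MMPs were not called. Their means ran from -0.11 for mmp11b to 0.16 for mmp28. Mmp2, which encodes a gelatinase that degrades basement membrane collagen, read 0.18, 0.002 and -0.18, with a mean of 0.002 ± 0.18. Those arrays spread on both sides of 0, and the 95% interval for mmp2 ran from -0.16 to 0.17. Mmp28, encoding epilysin, read 0.35, 0.10 and 0.04. Its mean of 0.16 ± 0.17 rested mostly on replicate 1 and did not pass (limma adjusted p = 0.16).

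Mmp11a and mmp11b encode stromelysin-3 paralogs, enzymes that convertases activate inside the cell. Their means were 0.11 ± 0.09 and -0.11 ± 0.17. Mmp19 had a mean of -0.05 ± 0.13. Mmp20b, a paralog of the mammalian tooth enamel enzyme gene, had a mean of 0.11 ± 0.13. Mmp23bb was counted here with the secreted MMPs, although its mammalian counterpart is anchored in the membrane by its amino-terminal end. Its mean was 0.004 ± 0.15. Mmp13b, a collagenase-3 paralog, had a mean of -0.02 ± 0.10 that averaged a pair of probes with different signs.

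None of the 7 genes counted here as membrane-bound MMPs was called, against 19.3% of all named genes. A class this small was not tested against that share. Mmp14a, encoding a zebrafish counterpart of the mammalian collagenase and MMP2 activator MT1-MMP, read 0.09, -0.30 and -0.38. Replicate 1 lay near 0 and replicates 2 and 3 lay well on the opposite side. Its mean of -0.20 ± 0.25 did not pass (limma adjusted p = 0.17), and its SD exceeded that of 96.8% of all named genes. Without replicate 1 the mean of mmp14a was -0.34 and it was called (limma adjusted p = 0.0039). Its paralog mmp14b read 0.04, -0.01 and 0.004, with a mean of 0.01 ± 0.03. The 3 arrays of mmp14b stayed within 0.04 of 0, and its 95% interval from -0.11 to 0.13 had the smallest farthest bound among the uncalled genes.

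Mmp15b, an MT2-MMP gene, also changed with replicate 1. It read -0.16, 0.14 and 0.27, with a mean of 0.08 ± 0.22, and without replicate 1 the mean was 0.20 (limma adjusted p = 0.049). The remaining membrane MMP genes had small means. Mmp16a and mmp16b had 0.03 ± 0.11 and 0.08 ± 0.08, mmp24 had 0.03 ± 0.18, and mmp25b had 0.02 ± 0.05.

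Among the catalytic ADAMs, 1 of 9 genes was called (11.1%, against 19.3% of all named genes). Adam8a, whose mammalian counterpart is made by leukocytes, read -0.38, -0.42 and -0.23. All 3 arrays lay on the opposite side. The mean was -0.34 ± 0.10, a 1.27-fold difference (limma adjusted p = 0.0052, 95% interval from -0.48 to -0.21). A list of 22 myeloid markers, chosen with earlier results of these data known, was read beside it. Of these, 6 were called (27.3%, against 19.3% of all named genes). All 6 lay on the opposite side, where 8.16% of all named genes were called. They were the cathepsin gene ctss2.1 (-2.60 ± 0.30), lyz (-0.70 ± 0.27), which encodes lysozyme, mpx (-0.59 ± 0.22), which encodes the peroxidase of neutrophils, coro1a (-0.40 ± 0.26), tnfrsf1a (-0.36 ± 0.15) and lcp1 (-0.31 ± 0.12). Lcp1 lost its call without replicate 2 (mean -0.24, limma adjusted p = 0.10), and mpx had 0.11 on its first probe alone (limma adjusted p = 0.83). The median of the 22 markers was -0.08, with 17 means below 0 and 5 above. The macrophage genes mpeg1.1 (0.09 ± 0.25) and csf1ra (0.05 ± 0.06) did not pass. Nor did the other ctss2 gene listed, ctss2.2 (0.09 ± 0.17), or the myeloid factor gene spi1b (-0.02 ± 0.08). The part of myeloid cells in the adam8a difference was not tested.

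The Notch and cadherin sheddase genes adam10a and adam10b both had negative means and neither was called. Adam10a read -0.12, -0.09 and -0.17 as a mean of 3 probes, with an overall mean of -0.13 ± 0.04 (limma adjusted p = 0.13). Adam10b read 0.01, -0.35 and -0.34. As with mmp14a, replicate 1 of adam10b lay near 0 while replicates 2 and 3 lay on the opposite side. The mean was -0.22 ± 0.21 (limma adjusted p = 0.084), and without replicate 1 it was -0.34 and called (limma adjusted p = 0.0034).

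Adam17a and adam17b encode counterparts of the enzyme that releases tumour necrosis factor and ligands of the EGF receptor. Adam17a read -0.09, -0.12 and -0.16, which gave a mean of -0.12 ± 0.03 (limma adjusted p = 0.15). Adam17b read -0.12, 0.30 and 0.04, with a mean of 0.08 ± 0.21, so its arrays lay on both sides of 0. Adam9a had a mean of -0.12 ± 0.13 and adam9b a mean of -0.03 ± 0.01. Adam19b, a meltrin beta gene, had a mean of 0.09 ± 0.14, and adam28 had a mean of 0.03 ± 0.02. Over the 9 catalytic ADAMs the median was -0.12, with 6 means below 0 and 3 above.

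Both non-catalytic ADAM genes measured are members of a neuronal branch whose proteins lack a working zinc site and bind other surface or secreted proteins. Adam23a read 0.32, 0.27 and 0.19 and lay on the slc2a10 side on every array. The mean was 0.26 ± 0.06 (limma adjusted p = 0.011, 95% interval from 0.14 to 0.38). Without replicate 2, the only array with the MO in Cy5, adam23a had about the same mean, 0.26, but was not called (limma adjusted p = 0.088). Adam11 read 0.24, -0.16 and 0.10, with a mean of 0.06 ± 0.20 that did not pass (limma adjusted p = 0.65). In mammals ADAM23 is a receptor of the secreted LGI proteins, and the 3 measured lgi genes, lgi1b (-0.05 ± 0.10), lgi2a (-0.03 ± 0.19) and lgi3 (-0.11 ± 0.04), did not pass.

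None of the 6 ADAMTS protease genes was called, against 19.3% of all named genes, and their means ran from -0.11 to 0.11. A class this small was not tested against that share. Adamts2a, a counterpart of the enzyme that trims procollagen, read -0.18, -0.08 and -0.07, all on the opposite side, with a mean of -0.11 ± 0.06 (limma adjusted p = 0.19). The proteoglycan-cutting branch was close to 0, with adamts9 at -0.008 ± 0.09, adamts8a at -0.002 ± 0.08, adamts15a at -0.08 ± 0.11 and adamts15b at -0.05 ± 0.05. Adamts8a and adamts15a are consecutive coding genes in the RefSeq table of the GRCz12tu assembly. Adamts18 had a mean of 0.11 ± 0.12. The ADAMTS-like proteins share the ADAMTS accessory domains but have no protease domain. Of these, adamtsl7 read 0.08, 0.08 and 0.32, with a mean of 0.16 ± 0.14 (limma adjusted p = 0.13), and adamtsl3 had a mean of 0.04 ± 0.12.

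The inhibitor genes timp2a and timp2b, paralogs of mammalian TIMP2, were both called and lay on different sides. Over all named genes 19.3% were called. Timp2b read -0.29, -0.25 and -0.39, with a mean of -0.31 ± 0.07, a 1.24-fold difference (limma adjusted p = 0.0062). Timp2a read 0.30, 0.14 and 0.15, with a mean of 0.20 ± 0.09, a 1.15-fold difference (limma adjusted p = 0.041). The ranges of timp2a and timp2b did not overlap. The timp2b call held without each replicate in turn. The timp2a call was lost without replicate 1 (mean 0.15, limma adjusted p = 0.11), without replicate 2 (mean 0.23, limma adjusted p = 0.13) and without replicate 3 (mean 0.22, limma adjusted p = 0.066), and with a dye term (mean 0.19, limma adjusted p = 0.14).

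**Figure D2:**
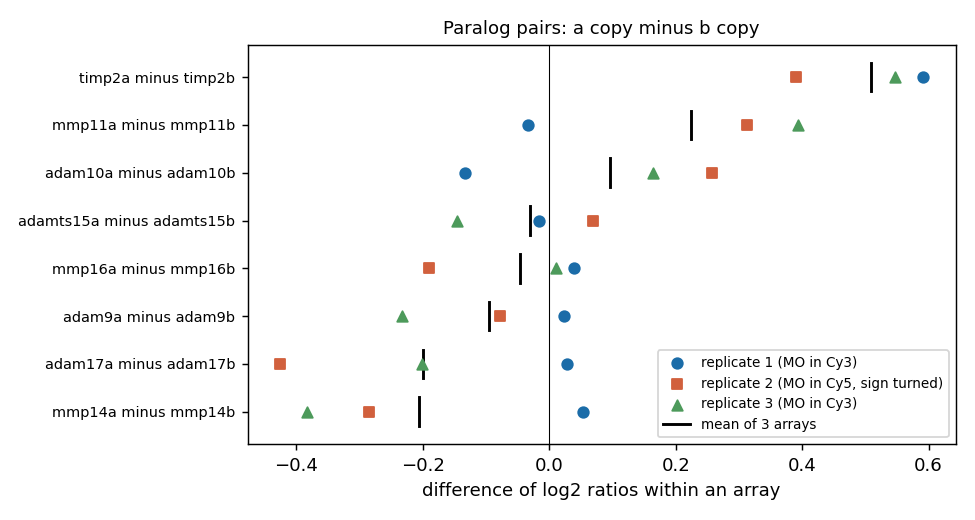
Difference of the log2 ratios of the a and b copies within each array for 8 paralog pairs, with symbols as for the single genes and black bars for the mean. The 3 arrays of timp2a minus timp2b lie between 0.39 and 0.59, and each of the other 7 pairs has arrays on both sides of 0.

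The family holds 8 pairs of a and b paralogs. Timp2a minus timp2b was 0.59, 0.39 and 0.55 on replicates 1, 2 and 3, a mean difference of 0.51 ± 0.11. It was the only pair of the 8 whose difference had 1 sign on all arrays. In 4 of the 8 pairs the means lay on different sides, the other three being adam17, mmp11 and mmp14. Mmp14a minus mmp14b averaged -0.21 ± 0.23, with 0.05 on replicate 1 and -0.29 and -0.38 on replicates 2 and 3. Mmp11a minus mmp11b averaged 0.22 ± 0.23, with -0.03 on replicate 1 and 0.31 and 0.39 on replicates 2 and 3. Differences between paralogs were not tested. Probes of near-identical copies can read both transcripts, and no source used here gives the positions of the probes in these genes.

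The 32 genes that were not called had 95% limma intervals that all stayed within 1.5-fold in either direction. The interval bound farthest from 0 was 0.13 for mmp14b, had a median of 0.23 over the 32 genes and was 0.40 for adam10b. These intervals treat the arrays as independent and leave out the spread between control embryos, which the pool hides. They also use a spread that limma drew toward an SD of 0.10 shared by all genes. For genes with larger SDs, such as mmp14a (0.25) and adam10b (0.21), this narrowed the interval. Intervals from each gene's own arrays alone were not computed, so differences of 1.5-fold are not excluded.

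**Figure D3:**
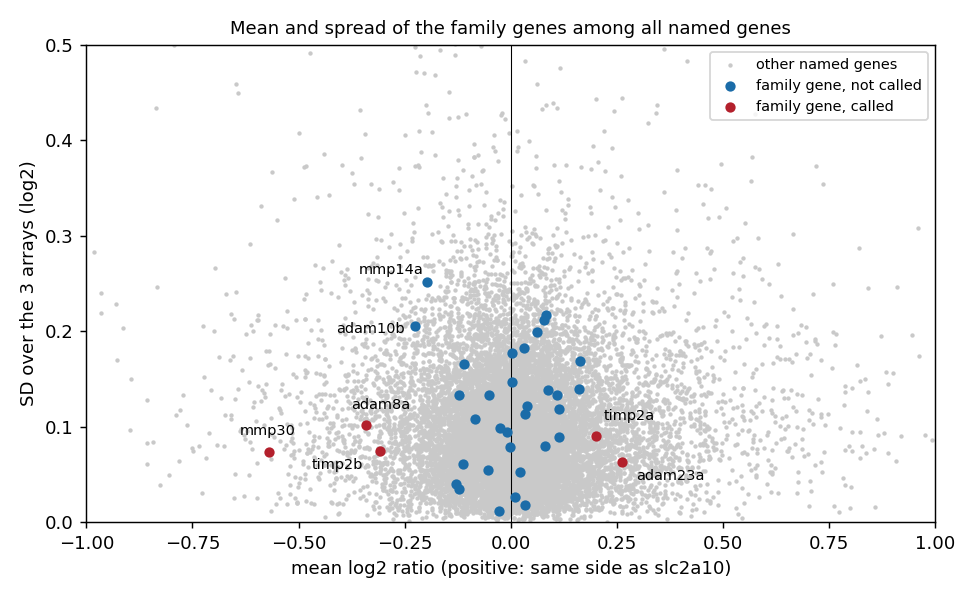
Mean log2 ratio (horizontal) against the SD over 3 arrays (vertical) for all named genes (grey), the 32 uncalled family genes (blue) and the 5 called ones (red). The 97 named genes beyond a mean of 1 in size or an SD of 0.5 are not drawn. The 5 called genes have SDs of 0.06 to 0.10, while mmp14a (0.25) and adam10b (0.21) have larger SDs at means near -0.2.

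The median SD over arrays was 0.108 for the 37 genes and 0.089 for all named genes, a difference that was not tested. Between replicates 1 and 2 the log2 ratios correlated at 0.55 over the 37 genes and at 0.74 over all 15548 named genes. Between replicates 1 and 3 the values were 0.40 and 0.57, and between replicates 2 and 3 they were 0.73 and 0.77. All arrays share the control pool, and the whole table holds larger differences than the family does, so these values are descriptions. Signal strength is unknown, and no filter on dim probes could be applied, so its part in the spread was not tested.

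Probes of 1 gene did not always point the same way. The pair of adam23a probes had means of 0.29 ± 0.16 and 0.23 ± 0.08, and both were called when probes were tested singly (limma adjusted p = 0.027 and 0.037). The pair of adam17a probes both lay on the opposite side, at -0.09 ± 0.02 and -0.16 ± 0.09, without being called. Of the 3 adam10a probes, means of -0.17 ± 0.08 and -0.20 ± 0.09 stood beside one of -0.02 ± 0.04. The mmp13b probes lay on different sides, at 0.14 ± 0.11 and -0.19 ± 0.18, with 1 sign on every array for each. The 3 adam28 probes ran from -0.05 to 0.13, and the adam9b probes had means of -0.03 ± 0.13 and -0.02 ± 0.12, so the small SD of the adam9b average did not reflect agreement of its probes. The adam9a probes had means of -0.05 ± 0.10 and -0.19 ± 0.19. Tested singly over 43603 probes, 5 of the 46 probes were called, against 11.7% of all probes. They were those of mmp30, adam8a and timp2b and both of adam23a, while the single timp2a probe was not called (limma adjusted p = 0.070).

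**Figure D4:**
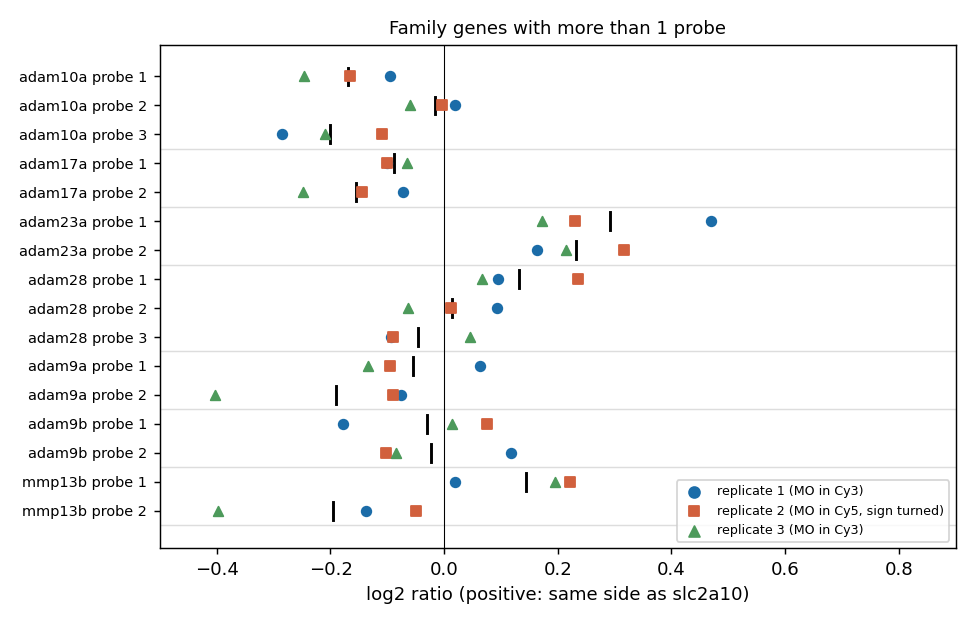
Log2 ratio of every probe of the 7 genes with more than 1 probe, on each array (symbols) and as the mean (black bars). Both adam23a probes lie above 0 on all arrays, and the mmp13b probes lie on different sides of 0.

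Some genes related to these enzymes had larger differences. Their lists were chosen with earlier results of these data known, so such sizes and shares are descriptions and no contrast with the family. In the wider superfamily of zinc proteases, 14 astacin, meprin, tolloid and related genes were measured, and 2 were called (14.3%, against 19.3% of all named genes), both on the opposite side. Both encode hatching enzymes, which digest the egg envelope. He1.1 read -1.15, -1.06 and -0.69, with a mean of -0.97 ± 0.24, a 1.95-fold difference (limma adjusted p = 0.00031). He1.2 read -1.15, -1.03 and -0.72, with a mean of -0.97 ± 0.22 (limma adjusted p = 0.00024). They are near-identical copies, so their probes may read the same transcripts. He1.3 (-0.12 ± 0.03) and the procollagen C-proteinase genes bmp1a (0.01 ± 0.03) and bmp1b (0.13 ± 0.10) did not pass. Of 12 measured notochord and hatching gland markers, 1 was called on each side (16.7% in all, against 19.3% of all named genes). These were ntd5 (-0.30 ± 0.06) and the notochord gene entpd5a (0.25 ± 0.09). Both lost their call without replicate 2, where ntd5 had -0.26 (limma adjusted p = 0.075) and entpd5a 0.27 (limma adjusted p = 0.081). Without replicate 1 this list had 3 calls on the opposite side and 1 on the slc2a10 side, in a fit that called 20.7% of all named genes. Without replicate 3 it had 2 on each side, in a fit that called 16.3% of all named genes. The hatching gland regulator gene klf17 had -0.10 ± 0.11 and did not pass. Nor did ctsl.1 (-0.06 ± 0.07), cd63 (-0.18 ± 0.12), agr2 (-0.19 ± 0.19) or xbp1 (0.23 ± 0.23) of the same list.

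Among 28 genes of protease activation and control, 3 were called on each side (21.4% in all, against 19.3% of all named genes). Spock2, encoding a testican, a secreted proteoglycan, read 0.83, 0.67 and 0.63, with a mean of 0.71 ± 0.10, a 1.64-fold difference (limma adjusted p = 0.00021). Tspan33b, a tetraspanin of the group that escorts ADAM10 in mammals, had a mean of 0.38 ± 0.14, and tspan14 of the same group had -0.26 ± 0.05. Plg, the plasminogen gene, had 0.31 ± 0.20. Tspan14 lost its call without replicate 2 (mean -0.25, limma adjusted p = 0.091) and plg without replicate 1 (mean 0.21, limma adjusted p = 0.052). On the opposite side were lrp1ab (-0.44 ± 0.06), whose mammalian counterpart clears proteases from the cell surface, and the protease inhibitor gene serpinb1 (-0.40 ± 0.18). The convertase genes furina (-0.17 ± 0.05) and furinb (-0.16 ± 0.06) did not pass (limma adjusted p = 0.061 and 0.070).

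Of 30 matrix substrate genes, 4 were called on each side (26.7% in all, against 19.3% of all named genes), with a median of -0.08. On the slc2a10 side, vcanb, encoding versican, a proteoglycan that ADAMTS proteases cut, read 0.53, 0.68 and 0.58, with a mean of 0.60 ± 0.08 (limma adjusted p = 0.00035). The small proteoglycan genes bgna (0.41 ± 0.05), lum (0.33 ± 0.06) and fmoda (0.22 ± 0.07) lay on that side too. On the opposite side, the fibronectin gene fn1b read -0.74, -0.59 and -0.50, with a mean of -0.61 ± 0.12, a 1.52-fold difference (limma adjusted p = 0.00052). The biglycan gene bgnb, the paralog of bgna, had -0.52 ± 0.09, the tenascin gene tncb had -0.30 ± 0.08 and the collagen I gene col1a1a had -0.20 ± 0.09. The fmoda call was lost without each replicate in turn (limma adjusted p between 0.055 and 0.086), and the col1a1a call without replicate 2 (mean -0.22, limma adjusted p = 0.17) and without replicate 3 (mean -0.15, limma adjusted p = 0.18). The collagen IV, laminin, nidogen and perlecan genes of the list, which encode basement membrane proteins, did not pass, and their means ran from -0.18 for nid1a (limma adjusted p = 0.070) to 0.13 for lama4 (limma adjusted p = 0.14).

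Of the 25 cartilage and bone markers measured, 8 were called (32%, against 19.3% of all named genes), 7 of them on the slc2a10 side, where 11.1% of all named genes were called. The median of the 25 was 0.06, with 15 means above 0 and 10 below. The 17 uncalled genes included sox9a (0.08 ± 0.08), runx2b (0.01 ± 0.02), col9a2 (-0.09 ± 0.08) and spp1 (-0.10 ± 0.01). Col10a1a, encoding collagen X, read 2.40, 2.03 and 1.98, with a mean of 2.14 ± 0.23, a 4.40-fold difference (limma adjusted p = 7.7e-06). Matn1, encoding matrilin 1 of cartilage matrix, read 1.56, 1.71 and 1.97, with a mean of 1.75 ± 0.21, a 3.36-fold difference (limma adjusted p = 1.4e-05). These markers were chosen with earlier results of these data known, so their sizes make no contrast with the family. Chad (0.43 ± 0.03), encoding chondroadherin, cnmd (0.37 ± 0.09), encoding chondromodulin, matn3a (0.33 ± 0.09), encoding matrilin 3, and ucmab (0.21 ± 0.08) followed, and hapln1b (-0.24 ± 0.06) was the call on the opposite side. Without replicate 2 and likewise without replicate 3, the list had 5 calls, all on the slc2a10 side. Over all named genes 10.0% and 16.3% were called in those fits. The calls of col9a3 (0.20 ± 0.09), ucmab and hapln1b were lost in both (limma adjusted p between 0.061 and 0.3).

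Of 40 substrates and ligands of ADAMs, 5 were called on the opposite side and 1 on the slc2a10 side (15% in all, against 19.3% of all named genes, 8.16% on the opposite side and 11.1% on the slc2a10 side). The called genes were a Notch receptor gene and 5 genes of Notch ligands, and ADAM10 cuts Notch receptors after ligand binding. Notch1a read -0.70, -0.48 and -0.74, with a mean of -0.64 ± 0.14, a 1.56-fold difference (limma adjusted p = 0.00051). The ligand genes dla (-0.51 ± 0.05), dlb (-0.46 ± 0.06), jag1a (-0.31 ± 0.10) and dlc (-0.21 ± 0.05) lay on the same side. The ligand gene dld lay on the slc2a10 side at 0.26 ± 0.08. The dlc call was lost without replicate 2 (mean -0.23, limma adjusted p = 0.11) and without replicate 3 (mean -0.19, limma adjusted p = 0.10). The dld call was lost without replicate 3 (mean 0.22, limma adjusted p = 0.059). Without replicate 1 the list had 2 calls on the slc2a10 side, in a fit that called 20.7% of all named genes on either side. The other Notch receptor genes, notch1b (0.009 ± 0.06), notch2 (-0.08 ± 0.03) and notch3 (-0.12 ± 0.06), did not pass, nor did the ligand genes dll4 (0.007 ± 0.07), jag1b (-0.004 ± 0.08) and jag2b (-0.03 ± 0.06).

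**Figure D5:**
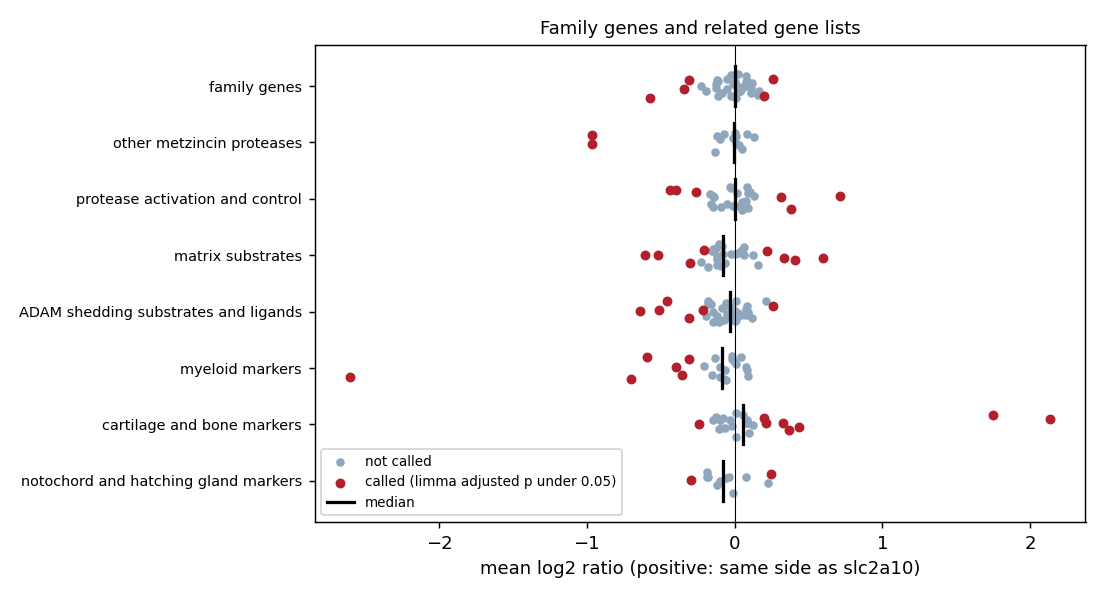
Mean log2 ratio of the 37 family genes and of the genes of 7 related lists, each point a gene, red where called and grey-blue where not, with a black bar at the median. The family's points run from -0.57 to 0.26. The myeloid list reaches -2.60 (ctss2.1) and the cartilage list 2.14 (col10a1a). The lists were chosen with earlier results of these data known, so their reach is no contrast with the family.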

How the data were processed

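RNA of whole embryos was amplified by T7, labelled with Cy3 or Cy5 and hybridised in pairs, per the labels' protocols. The deposited values are log ratios made by the authors, 1 per probe and array, and were read here as log2. Their largest size was 4.85, which as a log10 ratio would lie just past the range of a 16-bit scanner. That does not settle the base. A natural log was not excluded either, and with it the fold sizes given here would be understated. The submitters' processing notes name Partek, without a role. For background correction and normalization, the method is not given in the sources. Column medians were -0.0016, -0.0076 and -0.0045.

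From 43648 features, 45 control spots were left out. Probes were named from GEO's annotation, with symbols updated through the RefSeq table (GRCz12tu), which changed none of the 37 genes' symbols. A further 19886 probes had no name. The gene value was the mean of its probes. The mean of 3 arrays was tested against 0 with limma 3.58.1 in R 4.3.3 (lmFit, eBayes), adjusted over 15548 genes. The script was tested on simulated data with independent noise on each array. Those data held no shared pool error and no dye effect, so the run checks the code and not the calls made here. The pool is 1 control sample, so p-values hold no spread between control embryos. They rest on the spread between 3 MO replicates, which eBayes drew toward a value shared by all genes. That shared value was an SD of 0.10 with 6.05 degrees of freedom, beside 2 from the gene's own arrays. Every family gene is reported. Called family genes of at least 0.3 in size are given by array. Of each other list, the called genes of largest size are named, at most 6 a side. Col9a3 is named as well because its call was lost when a replicate was left out. Uncalled genes named there, genes of those lists given by array, and family genes below 0.3 given by array were chosen after their values were seen. Genes and lists were chosen with earlier results of these data known.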

Additional observations from a re-analysis of the deposited data

How the results depend on the processing

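The number of family genes called was 5, and it lay between 3 and 7 when replicates were left out singly (3 without replicate 2). It was 0 with the sign of replicate 2 as deposited, 0 with an ordinary t statistic and 11 with array weights (0.508, 2.81 and 0.701 for replicates 1, 2 and 3). Over all named genes 2996 were called, between 1556 and 3211 with replicates left out (1556 without replicate 2), 0 as deposited, 2 with an ordinary t statistic and 5211 with array weights. Of single probes of the family 5 were called, where 11.7% of all probes were called. The count was between 2 and 7 with replicates left out (2 without replicate 2), 0 as deposited, 0 with an ordinary t statistic and 10 with array weights. Shares of all probes in those other fits are not given here, so these probe counts are descriptions only. Mmp30, adam8a and timp2b were called under 11 of 13 gene-level alternatives, all but the unturned sign and the ordinary t statistic. Each of these genes has 1 probe and an unchanged symbol. Fits with the median of probes, the first probe or symbols not updated therefore could not alter their means. Mpx, outside the family, had 0.11 when only its first probe was used (limma adjusted p = 0.83). With a dye term in the fit, col1a1a, col9a3, dlc, dld, entpd5a, fmoda and ucmab, also outside the family, lost their calls. Only 1 array carried the MO in Cy5. The cause of these changes was not tested. No paired analysis was possible because there is 1 group of arrays. Intensities were not analysed here, so how signal over background limits each probe is unknown.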
